A study of Mus musculus with 8 samples.

Results

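Microglia are the resident macrophages of the brain, and their identity is held by a small set of transcription factors together with signalling by transforming growth factor beta (TGF-beta). The 9 genes described here were listed by name and looked up by symbol in a count table of 24924 genes, where all 9 were found: the transcription factors Spi1, Irf8, Sall1, Mef2a and Mef2c, the ligand Tgfb1, the receptor chains Tgfbr1 and Tgfbr2, and the signal transducer Smad3. They were measured in 8 RNA sequencing libraries, 2 in each of 4 groups, from C57BL/6 mice aged 20 to 22 months: microglia after phosphate-buffered saline (PBS), microglia after interleukin-5 (IL-5), T cells of the brain after PBS and T cells of the brain after IL-5. IL-5, a cytokine known for its action on eosinophils and B cells, was injected at 2 µg per day on 2 days, and both populations were sorted by surface markers. Every group was aged and no younger group was analysed here. The labels do not say whether the libraries come from separate mice or from pools, so p-values measure only the spread between these samples, which may be technical.

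Depth ranged from 23536908 to 30423828 gene counts per library, and levels are given as counts per 1000000 of these (CPM). The sorted identities matched their markers: 15 microglial markers such as P2ry12 and Tmem119 summed to 62400 to 94900 CPM in the microglia libraries and 114 to 211 CPM in the T cell libraries, and 15 T cell markers summed to 20.2 to 188 CPM and 4950 to 8210 CPM. Markers of other cells were present too. Neutrophil markers summed to 14100 to 18400 CPM in microglia and 15.5 to 92.3 CPM in T cells, B cell markers to 160 to 325 CPM in microglia and 165 to 316 CPM in T cells, and choroid plexus markers to 36000 to 64100 CPM and 59400 to 117000 CPM. Endothelial markers summed to 1150 to 1810 CPM in microglia and 1700 to 3200 CPM in T cells, and oligodendrocyte markers to 228 to 831 CPM and 1640 to 2630 CPM. Microglia IL-5 replicate 1 stood apart. Reads outside genes made up 25.49% of its column against 15.23% to 16.99% in the other microglia libraries, 13172 genes had a count against 14318 to 14624, and its log2 CPM correlated with the other microglia at 0.81 to 0.83 across genes, against 0.89 to 0.90 among the other 3. Results that rest on it are given with and without it.

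PU.1, the product of Spi1, is the ETS-family factor that opens the enhancers of macrophages, and IRF8 binds with it at shared sites. MEF2A and MEF2C are MADS-box factors that join PU.1 at microglial enhancers, and SALL1 is a zinc-finger factor that, among macrophages, marks microglia. TGF-beta1 binds the type II receptor TGFBR2, which then phosphorylates the type I receptor TGFBR1, and TGFBR1 in turn phosphorylates SMAD2 and SMAD3, which enter the nucleus with SMAD4. In the brain this pathway is needed for the mature microglial state, and in T cells it restrains effector functions and promotes residence in tissue.

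Spi1 lies on chromosome 2 (91082390 to 91115756, plus strand of GRCm38), Irf8 on chromosome 8 (120736358 to 120756694, plus strand), Sall1 on chromosome 8 (89027235 to 89044162, minus strand), Mef2a on chromosome 7 (67231163 to 67372858, minus strand) and Mef2c on chromosome 13 (83504034 to 83667080, plus strand). Tgfb1 lies on chromosome 7 (25687002 to 25705077, plus strand), Tgfbr1 on chromosome 4 (47353222 to 47414931, plus strand), Tgfbr2 on chromosome 9 (116084293 to 116175360, minus strand) and Smad3 on chromosome 9 (63646767 to 63757994, minus strand). All 9 are protein-coding genes. The span of Mef2a overlaps that of Lysmd4 on the opposite strand. Without a stated strand setting, reads from any exon shared by the 2 genes cannot be told apart. On their own strands the span of Mef2a overlaps those of the gene models Gm44667 and Gm44668, and the span of Irf8 overlaps that of Gm20388. Whether any of these overlaps includes exons was not tested, and it is not known whether the counting used these models. Their effect on the counts of Mef2a and Irf8 is therefore uncertain.

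The promoters of 4 members are shown because the genes form 2 pairs of partners that were expressed differently: the 2 receptor chains, of which Tgfbr1 but not Tgfbr2 passed the test between the cell types, and the 2 MEF2 factors, which both passed at different sizes. Each sequence is the 250 bases before an annotated start in RefSeq (GRCm38.p6), read 5′ to 3′ on the gene's strand, with matches to GAGGAA, the core recognised by PU.1, in capitals. The windows are chr4:47352972-47353221 on the plus strand for Tgfbr1, chr9:116175364-116175613 on the minus strand for Tgfbr2, chr7:67372859-67373108 on the minus strand for Mef2a and chr13:83503784-83504033 on the plus strand for Mef2c.
Tgfbr1: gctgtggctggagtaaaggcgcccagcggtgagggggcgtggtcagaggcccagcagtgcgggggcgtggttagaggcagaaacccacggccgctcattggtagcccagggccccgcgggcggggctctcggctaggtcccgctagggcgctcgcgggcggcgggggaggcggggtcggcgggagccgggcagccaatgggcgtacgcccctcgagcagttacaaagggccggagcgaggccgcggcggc
Tgfbr2: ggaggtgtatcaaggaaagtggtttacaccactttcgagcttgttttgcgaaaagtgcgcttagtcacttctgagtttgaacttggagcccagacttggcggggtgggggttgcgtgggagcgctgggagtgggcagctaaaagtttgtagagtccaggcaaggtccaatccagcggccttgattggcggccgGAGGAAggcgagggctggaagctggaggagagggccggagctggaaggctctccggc
Mef2a: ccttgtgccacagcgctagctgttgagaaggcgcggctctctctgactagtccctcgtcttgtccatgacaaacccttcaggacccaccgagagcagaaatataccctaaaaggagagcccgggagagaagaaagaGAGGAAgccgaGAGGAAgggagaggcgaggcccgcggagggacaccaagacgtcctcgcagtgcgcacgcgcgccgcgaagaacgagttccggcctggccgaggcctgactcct
Mef2c: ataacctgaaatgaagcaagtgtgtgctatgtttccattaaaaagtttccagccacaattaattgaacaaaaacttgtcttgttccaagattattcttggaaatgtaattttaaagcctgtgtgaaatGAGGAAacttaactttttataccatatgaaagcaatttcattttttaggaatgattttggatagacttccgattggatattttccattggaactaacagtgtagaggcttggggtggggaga

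The Tgfbr1 window held 0 matches to GAGGAA on either strand, the Tgfbr2 window held 1, the Mef2a window held 2 and the Mef2c window held 1. By comparison, 23.3% of 32851 mouse promoter windows of the same length held at least 1. A second annotated start of Tgfbr1 (window chr4:47385966-47386215) had 1 match to GAGGAA and 1 to CAGACA, a SMAD box found in 17.1% of all windows, and the second of 3 Mef2c windows had 1 match to GAGGAA. The windows found for Irf8, Sall1, Tgfb1 and Smad3 had none of either motif. No window of the 8 members matched had CTANNNNTAG, the MEF2 site (3.2% of all windows), or GGAANNGAAA, a composite site of ETS and IRF factors (2.3%). All 4 motifs were searched on both strands, and their letters do not contain one another. These matches describe the letters only. Spi1 had no entry.

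Levels of different genes were compared as CPM per kilobase (kb) of exon. The length merges the exons of all annotated transcripts of a gene, such as 2.7 kb for Spi1, 7.06 kb for Irf8 and 15.72 kb for Mef2c. Which transcripts were expressed was not tested, so every order between genes holds for this length only. In microglia Spi1 was the most abundant of the 9, with a median of 252 CPM per kb (211 to 301 over 4 libraries), and its lowest library lay above every library of every other member. Tgfbr1 followed at 83.5 (58.7 to 90.5) and Irf8 at 52.7 (21.4 to 70.3). Their ranges overlapped, but Tgfbr1 was above Irf8 within every microglia library. Sall1 at 18.1, Tgfbr2 at 17.9, Tgfb1 at 16.1, Mef2c at 11.6 and Mef2a at 10.8 CPM per kb formed a middle group in which neighbours overlapped, although Mef2c was above Mef2a in each microglia library. Smad3 was lowest, at 2.48 (1.33 to 3.73), below every Mef2a library.

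The order in T cells was different. Tgfbr2 led with a median of 18.4 CPM per kb (8.51 to 23.2), followed by Tgfb1 at 7.35, Mef2a at 7.33 and Smad3 at 5.12. The ranges of these 4 neighbours overlapped, and each Smad3 library was above each Irf8 library (median 3.25). Mef2c at 3.22, Tgfbr1 at 1.70, Spi1 at 0.70 and Sall1 at 0.31 CPM per kb closed the order, again with overlapping neighbours. Spi1, the leading member in microglia, was thus next to last in T cells.

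**Figure D1:**
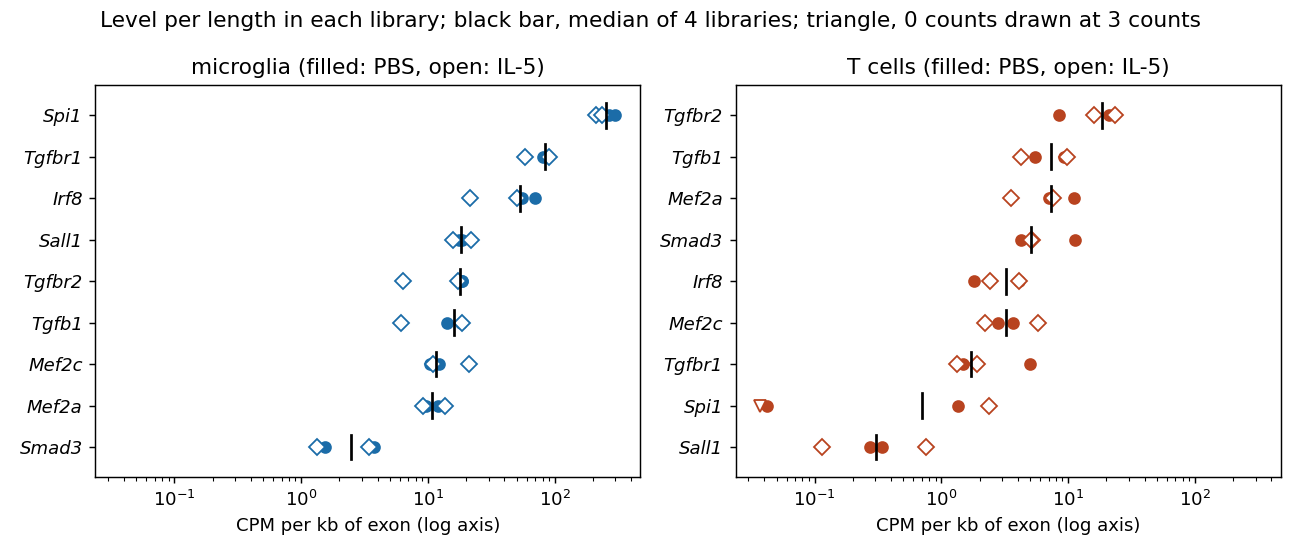
Level of each member in CPM per kb of exon (log axis) in the 4 microglia libraries (left) and the 4 T cell libraries (right), with genes ordered by their median (black bar), filled points for PBS, open points for IL-5 and a triangle for a library with 0 counts drawn at the level of 3 counts. Spi1 leads in microglia at 252 CPM per kb and Tgfbr2 leads in T cells at 18.4 CPM per kb.

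The comparison of T cells with microglia asked which of these regulators separate the 2 sorted populations. With all 8 libraries in the model, 7 of 9 members were lower in T cells and 0 were higher (edgeR quasi-likelihood test, Benjamini-Hochberg adjusted p under 0.05 over 15397 genes). All 5 transcription factors, Tgfb1 and Tgfbr1 were among the 7, while Tgfbr2 and Smad3 did not pass. In the background, 11.4% of all genes tested were called lower in T cells and 8.05% higher. The model scales libraries by TMM, a method that takes most genes as unchanged between libraries, with factors of 0.64 to 0.82 in microglia and 1.27 to 1.32 in T cells. TMM put the median difference of all genes at 0.17 on the log2 scale and scaling by library size alone at 0.91, so log2 differences between the cell types are read relative to 0.17. With library size alone 5 of 9 members were lower in T cells. All 4 T cell libraries lay below all 4 microglia libraries for 7 of 9 members after TMM scaling, against 15.6% of all genes, and for 5 of 9 in CPM, against 8.14%. No member had all T cell libraries above after TMM scaling (14.0% of all genes).

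Spi1 measured 727 and 812 CPM in PBS microglia and 568 and 631 CPM in IL-5 microglia. In T cells it measured 0.11 CPM (3 counts) and 3.65 CPM (94 counts) after PBS, and 0 and 6.36 CPM (169 counts) after IL-5. The 4 T cell libraries were thus far below the 4 microglia libraries but spread widely among themselves. The log2 difference was -8.90 (SE 1.57, edgeR adjusted p = 0.00683), and a count of 0 in that library allows up to 0.10 CPM, which covers counting error only. The Spi1 call was lost without any 1 of microglia PBS replicates 1 and 2, microglia IL-5 replicates 1 and 2, and T cells PBS replicate 1 (edgeR adjusted p between 0.0638 and 0.0969), without a filter on low counts (0.0554) and with the IL-5 groups alone (0.0553), each time with a difference between -9.03 and -8.42. Microglial markers did not all follow Spi1 among the T cell libraries, read as shares of the microglial mean. In the replicate 2 libraries after PBS and IL-5 the median of 15 such markers was 0.0905% and 0.0568%. Spi1 was at 0.534% and 0.929% there. In the replicate 1 libraries the median was 0.00667% and 0%, and Spi1 was at 0.0166% and 0%. The highest marker share went the other way. It was 2.16% in T cells IL-5 replicate 1, where Spi1 was at 0%, and 1.44% in T cells IL-5 replicate 2. Spi1 is also a gene of neutrophils, whose 10 markers were at the levels given above. The part of either in its levels was not tested.

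Irf8 measured 387 and 496 CPM in PBS microglia, 151 and 357 CPM in IL-5 microglia, 28.9 and 12.9 CPM in PBS T cells and 17.0 and 29.0 CPM in IL-5 T cells. No T cell library reached the lowest microglia library. The log2 difference was -4.67 (SE 0.39, edgeR adjusted p = 0.000101). Irf8 in T cells amounted to 3.70% to 8.35% of its microglial mean, above the highest of the 15 microglial markers in each T cell library (1.26% to 2.16%). B cells also express Irf8 and Mef2c, and their 8 markers had overlapping sums in both populations; 2 of the 8 were at 0 counts in a PBS microglia library and none in the other 3 groups. Their part in these levels was not tested. In bulk samples such as these, fewer cells of a type and less RNA per cell cannot be told apart.

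Sall1 measured 91.9 and 98.2 CPM in PBS microglia, 115 and 81.9 CPM in IL-5 microglia, 1.78 and 1.44 CPM in PBS T cells and 0.60 and 3.95 CPM in IL-5 T cells. In CPM its highest microglia library was 1.40 times the lowest, the smallest such ratio among the members and close to 1.43 for Spi1. That ranking is for CPM only. After TMM scaling, with IL-5 replicate 1 as the only IL-5 library, the log2 difference from PBS was 0.607 for Sall1 and -0.099 for Spi1. Between T cells and microglia the log2 difference of Sall1 was -6.45 (SE 0.64, edgeR adjusted p = 0.000242).

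The 2 MEF2 factors had smaller log2 differences than the other 3 transcription factors. Mef2a measured 176 and 141 CPM in PBS microglia, 202 and 133 CPM in IL-5 microglia, 163 and 104 CPM in PBS T cells and 111 and 52.3 CPM in IL-5 T cells. In CPM the cell types overlapped. The log2 difference after TMM scaling was -1.43 (SE 0.35, edgeR adjusted p = 0.0209). It was -0.64 (adjusted p = 0.187) with library size alone, and the call was also lost with the PBS groups alone (-0.94, adjusted p = 0.297), with the IL-5 groups alone (-1.92, adjusted p = 0.0502), without T cells PBS replicate 2 (adjusted p = 0.0667) and without T cells IL-5 replicate 2 (adjusted p = 0.0611). Mef2c measured 190 and 162 CPM in PBS microglia, 329 and 174 CPM in IL-5 microglia, 43.8 and 57.5 CPM in PBS T cells and 90.5 and 34.8 CPM in IL-5 T cells, with no overlap between the cell types. Its log2 difference was -2.70 (SE 0.41, edgeR adjusted p = 0.0022). Per kb of exon, Mef2a was at 0.66 to 0.99 times Mef2c in microglia and at 1.31 to 4.0 times Mef2c in T cells. By this length the order of the pair was opposite in the cell types in every library.

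**Figure D2:**
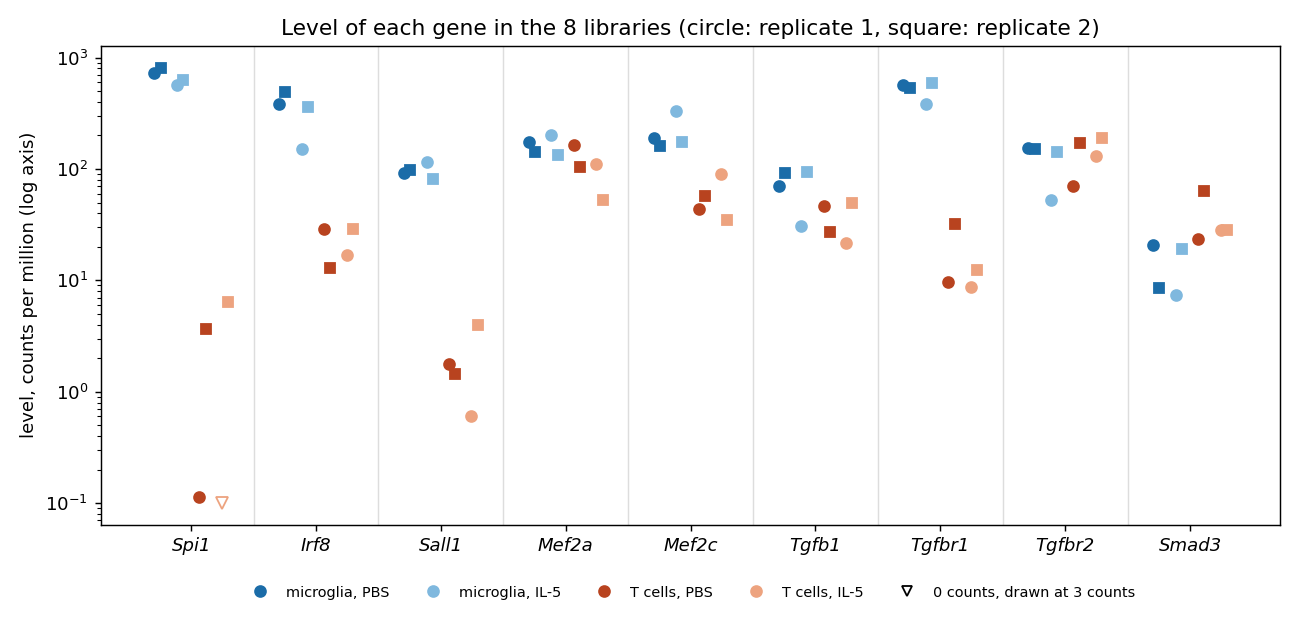
CPM of each member on a log axis in every library, by group of 2 (microglia PBS, microglia IL-5, T cells PBS, T cells IL-5). Spi1, Irf8, Sall1, Mef2c and Tgfbr1 have no overlap between the cell types, Mef2a, Tgfb1 and Tgfbr2 overlap, and Smad3 is higher in all 4 T cell libraries on this scale.

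The ligand Tgfb1 measured 70.9 and 91.9 CPM in PBS microglia, 30.9 and 93.5 CPM in IL-5 microglia, 46.8 and 27.4 CPM in PBS T cells and 21.5 and 49.4 CPM in IL-5 T cells. The lowest microglia library, IL-5 replicate 1, lay within the range of the T cells. The log2 difference was -1.71 (SE 0.43, edgeR adjusted p = 0.0229), and it was -0.97 (adjusted p = 0.168) with library size alone. The Tgfb1 call was also lost with the PBS groups alone (adjusted p = 0.113), with the IL-5 groups alone (adjusted p = 0.163), and without microglia PBS replicate 2, T cells PBS replicate 2 or T cells IL-5 replicate 1 (adjusted p = 0.0516, 0.067 and 0.0737).

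The 2 receptor chains differed most in their pattern. Tgfbr1, the type I receptor, measured 563 and 529 CPM in PBS microglia, 383 and 591 CPM in IL-5 microglia, 9.69 and 32.4 CPM in PBS T cells and 8.71 and 12.5 CPM in IL-5 T cells. Its lowest microglia library was more than an order of magnitude above its highest T cell library, and the log2 difference was -5.86 (SE 0.44, edgeR adjusted p = 6.2e-05). Tgfbr2, the type II receptor that binds the ligand, measured 153 and 152 CPM in PBS microglia, 52.3 and 141 CPM in IL-5 microglia, 69.7 and 171 CPM in PBS T cells and 131 and 190 CPM in IL-5 T cells. Its cell types overlapped, with a log2 difference of -0.54 (SE 0.36, edgeR adjusted p = 0.334) that became 0.20 (adjusted p = 0.764) with library size alone. Per kb of exon, Tgfbr1 was 4.61 and 4.37 times Tgfbr2 in PBS microglia and 9.19 and 5.26 times in IL-5 microglia. In T cells Tgfbr2 was the more abundant chain, at 5.74 and 4.22 times Tgfbr1 after PBS and 12 times in both IL-5 libraries.

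Smad3, the transducer, was the least abundant member in microglia. It measured 20.7 and 8.51 CPM in PBS microglia, 7.39 and 19.0 CPM in IL-5 microglia, 23.3 and 63.4 CPM in PBS T cells and 28.5 and 28.3 CPM in IL-5 T cells. In CPM all 4 T cell libraries were above all 4 microglia libraries, as were 25.9% of all genes tested. After TMM scaling the cell types overlapped, and the log2 difference of 0.60 (SE 0.59, edgeR adjusted p = 0.519) did not pass.

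The calls for Irf8, Sall1, Mef2c and Tgfbr1 passed under every alternative run, including either treatment alone and each library left out (highest edgeR or DESeq2 adjusted p of 0.00282, 0.00448, 0.0323 and 0.00123).

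The other genes of these pathways were read from lists written for this purpose, as counts and medians beside the median of all genes, 0.17. Of 25 other transcription factors of microglia and macrophages tested, 13 were lower in T cells and 3 higher, with a median log2 difference of -2.49. The lower ones included Cebpa, a factor of myeloid commitment, at 81.0 to 112 CPM in microglia and 0 to 1.13 CPM in T cells (log2 difference -8.30, SE 1.39, edgeR adjusted p = 0.00538). Egr1, Klf2 and Cebpb, among the most abundant of the list, were lower by 3.17, 1.71 and 2.75 on the log2 scale. The 3 higher ones were Bhlhe40, a repressor that supports cytokine production in T cells (3.37), and the ETS factors Ets1 (1.87) and Elf1 (1.42).

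Relatives within the members' own gene families went in both directions. Of 23 tested, 4 were higher in T cells, namely Irf7 (2.15), Irf1 (2.11), Irf9 (1.87) and Smad4 (1.40), and 2 were lower, Irf5 (-5.67) and Smad7 (-1.67), with a median of 0.28 on the log2 scale. Irf1, Irf7 and Irf9 are factors of the interferon response. Irf5, like Irf8 a myeloid factor, measured 92.3 to 431 CPM in microglia and 0.54 to 13.6 CPM in T cells. Irf3 did not pass (0.09, edgeR adjusted p = 0.915).

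Among 14 other TGF-beta ligands and activators tested, 2 were lower and 2 higher in T cells, with a median of 0.39. Nrros, which holds latent TGF-beta1 on the surface of microglia, measured 314 and 389 CPM in PBS microglia, 130 and 252 CPM in IL-5 microglia and 46.1 to 97.8 CPM in T cells (log2 difference -2.78, SE 0.27, edgeR adjusted p = 0.000209). Gdf15, a distant relative of TGF-beta, was at 3.35 to 46.0 CPM in microglia and at 0 counts in 3 of 4 T cell libraries. The latent TGF-beta binding proteins Ltbp1 (4.03, adjusted p = 0.0482) and Ltbp4 (1.97, adjusted p = 0.0353) were higher in T cells by edgeR. In CPM Ltbp1 overlapped between the cell types, at 0 to 11.9 in microglia and 3.57 to 67.4 in T cells. Of 9 endothelial markers 5 were called higher in T cells and 1 lower, with a median of 1.95. The part of other cells in the values of these pathway genes was not tested. Itgav, an integrin chain that activates the latent ligand, missed the threshold (-1.72, adjusted p = 0.0633), and the log2 difference of Tgfb2 was 0.62 (adjusted p = 0.349).

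None of the 9 other TGF-beta and activin receptors tested passed in either direction by edgeR (3 at an unadjusted p under 0.05, 1 by DESeq2), with a median of -0.33. Acvrl1 (0.08), Tgfbr3 (1.04), Eng (0.95) and Bambi (0.21) were the most abundant. Of 19 SMADs and their regulators, 6 were lower in T cells and 1, Smad4, was higher, with a median of -1.27. The 6 lower ones were genes known to dampen the pathway: Pmepa1, a membrane protein that sequesters SMADs, at 423 to 480 CPM in microglia and 36.3 to 68.1 CPM in T cells (log2 difference -3.91, SE 0.29, edgeR adjusted p = 5.71e-05), Tgif1 (-2.20), Ski (-2.17), Ldlrad4 (-2.02), the inhibitory SMAD Smad7 (-1.67) and Fkbp1a (-1.28), which binds the type I receptor. Other genes of the list that dampen the pathway did not pass, so such genes were not lower as a class. They were Nedd4l (1.0), Smurf1 (0.69), Smurf2 (0.05), Ppm1a (-0.34), Skil (-1.27), Smad6 (-1.84) and Tgif2 (-6.59). Strap, another regulator, was at 0.40 (edgeR adjusted p = 0.555). In the BMP branch, a parallel pathway, 1 of 14 genes was lower, Id1 (-1.51), and 0 were higher, while Id2 (0.62) and Id3 (-0.84) did not pass.

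**Figure D3:**
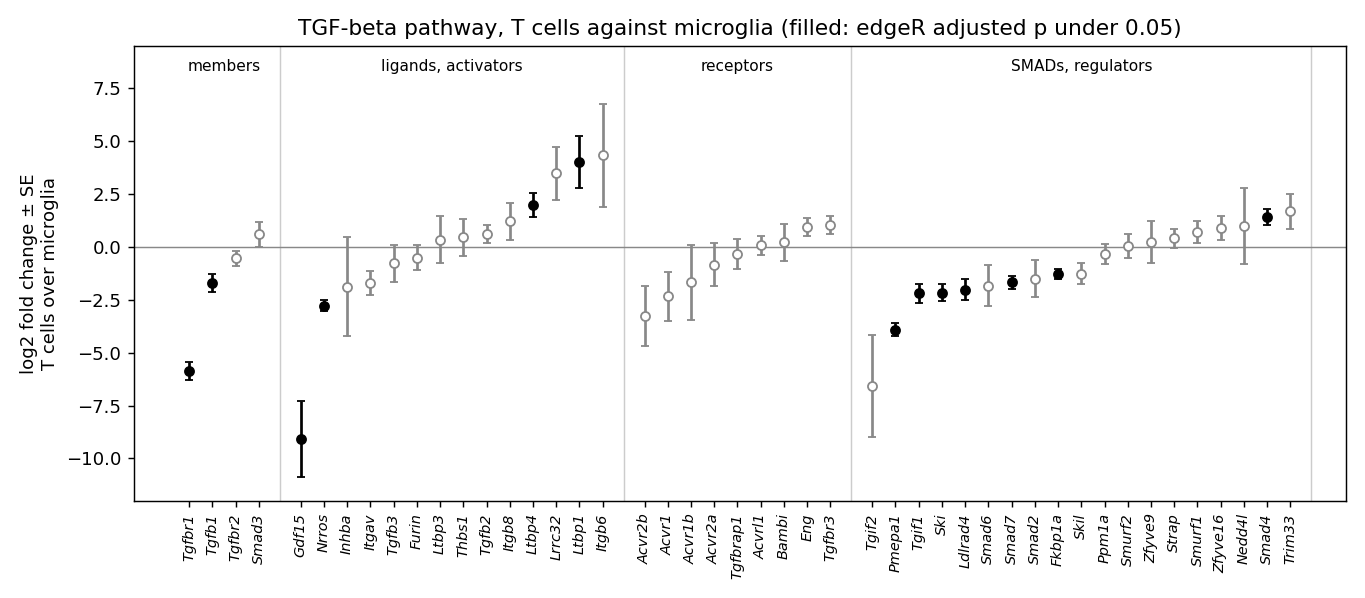
Log2 fold change of T cells over microglia (vertical axis, with its SE) for the 4 TGF-beta members and each tested ligand or activator, receptor, and SMAD or regulator, ordered within each list and filled where the edgeR adjusted p is under 0.05. Tgfbr1 (-5.86) lies below all 9 other receptors, of which none passed, and 6 of the 7 called SMADs and regulators lie below 0.

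Genes known to depend on these regulators in microglia were almost all lower in T cells. Of 17 tested genes that microglia express under TGF-beta, 16 were lower (median -7.53). Tgfbi, itself named for induction by TGF-beta, did not pass by edgeR (-3.96, adjusted p = 0.0904), while DESeq2 called all 17. P2ry12, a purine receptor, measured 1710 to 3170 CPM in microglia and 0 to 2.21 CPM in T cells. All 18 myeloid genes listed under PU.1 and IRF8 were lower (median -9.31), among them Ctss, Tyrobp and Fcer1g. These lists share genes with the markers by which microglia are recognised, so their counts describe the sort as well. Of 14 genes that respond to TGF-beta in T cells, 4 were higher in T cells by edgeR and 5 lower, with a median of 2.95. The 4 were the residency genes Cxcr6 (5.56), Runx3 (4.06), Xcl1 (2.99) and Itga1 (2.90). The 5 were the feedback genes Pmepa1, Tgif1, Ski, Ldlrad4 and Smad7 described above. DESeq2 called all 14.

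The comparison of IL-5 with PBS in microglia asked whether the treatment moved these regulators. None of the 9 members passed the test by edgeR, none had an unadjusted p under 0.05 and none was called by DESeq2. In the background, 0.0% of 13764 genes were called by edgeR, where an unadjusted p under 0.05 was reached by 246 genes on the higher side and 371 on the lower, and DESeq2 called 18 higher and 49 lower. The largest log2 differences were those of Mef2c at 0.73 (SE 0.51, edgeR adjusted p = 0.979), Irf8 at -0.71 (SE 0.45, adjusted p = 0.974) and Tgfbr2 at -0.58 (SE 0.46, adjusted p = 0.984). The other 6 lay between -0.32 (Tgfb1) and 0.29 (Mef2a). With an SE of 0.38 to 0.88 on the log2 scale, differences of this size were not detectable with 2 libraries a group. After TMM scaling, both IL-5 libraries were below both PBS libraries for Spi1, Irf8 and Tgfbr2, 3 of 9 members against 21.1% of all genes, and above for 0 members against 17.4%.

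The IL-5 libraries of microglia did not match each other for these genes. In CPM, IL-5 replicate 1 was outside the range of the other 3 microglia libraries for all 9 members. It was below them for Irf8 (0.39 times their median), Tgfb1 (0.34), Tgfbr2 (0.345), Smad3 (0.39), Tgfbr1 (0.68) and Spi1 (0.78), and above them for Mef2c (1.89), Mef2a (1.43) and Sall1 (1.25). Among all genes, also in CPM, 42.3% were below the other 3 libraries and 23.7% above, with a median ratio of 0.70. Positions can differ after TMM scaling. With all 8 libraries scaled together the factor was 0.638 for IL-5 replicate 1 and 0.808 to 0.819 for the other 3. The fits within microglia used factors of their own, which are not given here. For Spi1 the TMM-scaled log2 difference from PBS was -0.309 with IL-5 replicate 2 alone and -0.099 with IL-5 replicate 1 alone. The 15 microglial markers were split in this library: 8 were below the other 3 libraries, among them Tmem119 (0.33), Cx3cr1 (0.57) and P2ry12 (0.68), 5 were above, among them C1qa (26900 CPM against at most 10600) and Gpr34 (2790 CPM against at most 2520), and 2 lay within their range.

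Without IL-5 replicate 1 the signs of 6 members turned. Sall1 was then at -0.24, Mef2a at -0.27, Mef2c at -0.045, Tgfb1 at 0.18, Tgfbr1 at 0.093 and Smad3 at 0.35 on the log2 scale, and the differences of Spi1 (-0.31), Irf8 (-0.33) and Tgfbr2 (-0.13) stayed below 0, none of them passing. Without IL-5 replicate 2, where replicate 1 alone stood for the treatment and is assumed to vary like the PBS libraries, Irf8 was lower (-1.21, edgeR adjusted p = 0.0354) and Mef2c higher (1.24, adjusted p = 0.0259), Tgfbr2 was at -1.20 (adjusted p = 0.0526), and 532 genes were called higher and 723 lower. Scaled to the microglial markers, Sall1 (-0.067) and Mef2a (-0.036) also turned below 0. Markers of other cells moved with the treatment in microglia: choroid plexus markers summed to 36000 to 43300 CPM after PBS and 60200 to 64100 CPM after IL-5, B cell markers to 160 to 196 and 296 to 325 CPM, and oligodendrocyte markers to 684 to 831 and 228 to 490 CPM. Their part in the members' values was not tested.

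**Figure D4:**
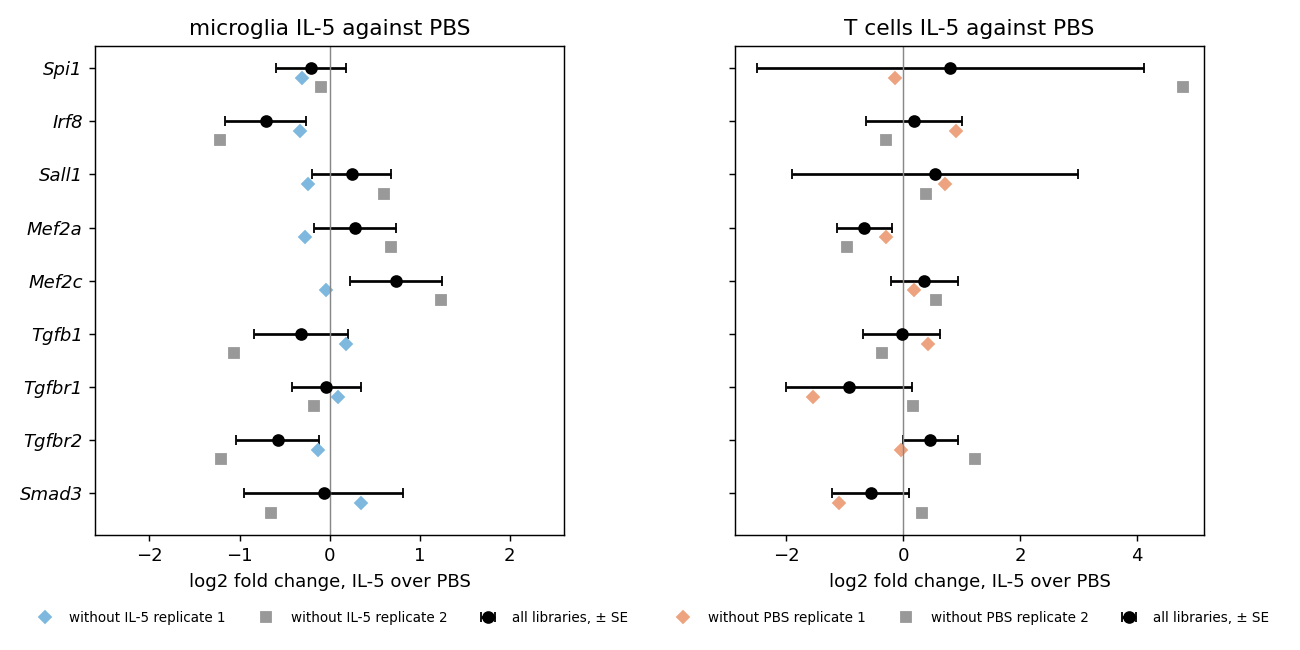
Log2 fold change of IL-5 over PBS for each member in microglia (left) and T cells (right), with the estimate from all libraries and its SE (black) and, as diamonds and squares, the estimate with 1 library left out as named under each panel. In microglia the estimates without IL-5 replicate 1 lie close to 0 (-0.33 to 0.35), and in T cells those of Spi1 and Sall1 have the widest errors.

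No context list had a called gene after IL-5 in microglia. Over these lists 0 of 128 tested genes passed by edgeR, 6 had an unadjusted p under 0.05, and DESeq2 called 1, Bmp4, named here after its value was seen. The 17 genes that depend on TGF-beta had a median of -0.42 on the log2 scale, with 14 below 0, and the 18 genes under PU.1 and IRF8 had a median of -0.39, with 12 below 0, against -0.023 for all genes. Without IL-5 replicate 1, an alternative added after the data were seen, these medians were -0.28 (16 below 0) and -0.24 (16 below 0) against -0.088 for all genes. Within the second list Tyrobp and Fcer1g measured 14700 and 9520 CPM in IL-5 replicate 1 and at most 5110 and 3850 CPM in the other microglia, while Laptm5 measured 1060 CPM there and at least 3550 CPM in the others. Other lists had medians of 0.17 (other transcription factors), -0.06 (family relatives), -0.17 (ligands and activators), -0.39 (receptors), 0.05 (SMADs and regulators) and -0.02 (BMP branch). Without IL-5 replicate 1 the receptors turned to 0.15, the other transcription factors to -0.09 and the SMADs and regulators to -0.04, the ligands and activators moved to -0.63 and the BMP branch to -0.27, and the family relatives were at -0.07.

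In T cells, none of the 9 members passed for IL-5 against PBS by edgeR (adjusted p = 1.0 for each), none had an unadjusted p under 0.05 and none was called by DESeq2. Of 13897 genes tested 0.0% were called by edgeR, where 355 genes on the higher side and 245 on the lower reached an unadjusted p under 0.05 and DESeq2 called 403 and 255. For all 9 members the IL-5 and PBS libraries overlapped, where 18.1% of all genes had both IL-5 libraries above both PBS libraries and 17.3% below. Tgfbr1 was at -0.93 (SE 1.08), Mef2a at -0.67 (SE 0.47), Smad3 at -0.56 (SE 0.66), Tgfbr2 at 0.46 (SE 0.47), Mef2c at 0.36 (SE 0.58), Irf8 at 0.18 (SE 0.83) and Tgfb1 at -0.02 (SE 0.66) on the log2 scale. Spi1 (0.81, SE 3.31) and Sall1 (0.54, SE 2.44) were too close to 0 CPM for a usable estimate. Choroid plexus markers summed to 59400 to 84600 CPM in PBS T cells and 114000 to 117000 CPM in IL-5 T cells, and T cell markers to 7140 to 8210 and 4950 to 5980 CPM; their part in these values was not tested.

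Among the context lists in T cells 0 of 119 tested genes passed by edgeR, 7 had an unadjusted p under 0.05 and DESeq2 called 8. The 8 were Cxcr6, Itga1, Runx3, Tgfb3 (-3.05 on the log2 scale of edgeR), Mef2d (-0.98), Ctss (-0.8), Cd68 (-9.36) and Btk (11.11). Cd68 was at 0 CPM in both IL-5 libraries and Btk in both PBS libraries. Tgfb3, Mef2d, Ctss, Cd68 and Btk are named for this call after it was seen. The 14 genes that respond to TGF-beta in T cells had a median of -0.51, with 9 below 0, against -0.012 for all genes, and a median of -0.34, with 11 below 0, without T cells IL-5 replicate 1. Of these, Cxcr6, a chemokine receptor of resident T cells, was at 958 and 1190 CPM in the PBS libraries and at 602 and 701 CPM in the IL-5 libraries (-0.67, SE 0.18, edgeR adjusted p = 1.0). Itga1, an integrin chain, fell within 156 to 215 CPM and 88.4 to 107 CPM in the same groups, and Runx3, a factor of resident CD8 cells, within 122 to 139 CPM and 57.9 to 65.3 CPM. The IL-5 libraries were below the PBS libraries for these 3 genes, which are among the 8 that DESeq2 called. Other genes of the list had values near 0 or above, such as Cd69 (0.02, SE 0.23) and Itgae (0.22, SE 1.14). T cell markers moved the same way in these libraries: 11 of 15 were below 0, with a median of -0.35 on the log2 scale, among them Lck (-0.67) and Cd3g (-0.65). Their part in the values of Cxcr6, Itga1 and Runx3 was not tested.

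The difference between the 2 responses to IL-5 was tested as an interaction in the model of all libraries. It did not pass for any member by edgeR (0 at an unadjusted p under 0.05, 0 by DESeq2), and 0.0% of 15397 genes were called (unadjusted p under 0.05 for 496 genes with a higher response in T cells and 302 with a lower one, DESeq2 calls for 130 and 51). The largest values were 0.99 for Tgfbr2 (SE 0.73, edgeR adjusted p = 0.926), -0.97 for Mef2a (SE 0.70, adjusted p = 0.92), -0.95 for Tgfbr1 (SE 0.71, adjusted p = 0.929) and 0.85 for Irf8 (SE 0.68, adjusted p = 0.938) on the log2 scale. Over the context lists 0 of 133 tested genes passed by edgeR, and DESeq2 called 4, namely Btk, Cd68, Ltbp1 and Tmem119.

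Across the 8 libraries the members correlated to different degrees. Pearson's r of TMM-scaled log2 CPM was 0.92 to 0.97 between any pair of Spi1, Irf8, Sall1 and Tgfbr1, and Mef2c correlated with these 4 at 0.82 to 0.91. Mef2a correlated with these 5 at 0.66 to 0.90 and Tgfb1 at 0.62 to 0.94, and Mef2a with Tgfb1 at 0.56. Tgfbr2 correlated with the other 8 members at -0.02 to 0.60 and Smad3 at -0.53 to 0.17. These values are a description over 8 libraries that share 2 cell types, and cell type is what most of the points share. By the same measure the 3 tested genes most like each member were P2ry12, Slc2a5 and Itgam for Tgfbr1 (0.998, 0.998 and 0.997), Pkib, Tgif1 and Cebpa for Spi1 (0.997, 0.996 and 0.996), Rnaset2b, Myadm and Lgmn for Irf8 (0.997, 0.996 and 0.995), and Glmp, Rac3 and Pou2f2 for Sall1 (0.994, 0.994 and 0.993). For Mef2c they were Ier3, Saysd1 and Mob2 (0.993, 0.991 and 0.99), for Mef2a Spsb2, Tmem128 and Alyref (0.987, 0.984 and 0.976), and for Tgfb1 Rab31, Arrb2 and Cnot8 (0.989, 0.986 and 0.985). For Tgfbr2 they were Tmc6, Gmip and Krcc1 (0.985, 0.977 and 0.965), and for Smad3 Zfp945, Gpt and Acad11 (0.956, 0.942 and 0.934).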

How the data were processed

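RNA of 8 libraries was measured by sequencing. The authors deposited unscaled counts of reads for each gene. The tools in the submitters' processing notes are STAR 2.5.3a, DESeq2 1.1, Cufflinks 2.0, FastQC 1.0.0 and bcl2fastq 2.20.0.422, and the build is mm10 (GRCm38). The counting tool and its strand setting are not given in the sources used here. Of 24953 entries, 2 summary entries and 27 with cells that are not numbers were left out. Of the remaining 24924 genes, 24390 (97.9%) matched 1 gene of GENCODE M21, the source of coordinates and exon lengths. A floor of 3 counts equals 0.0986 to 0.1275 CPM.

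Groups were compared in R 4.3.3 by the quasi-likelihood test of edgeR 4.0.16, two-sided, after TMM scaling and filterByExpr with a minimum count of 10, with Benjamini-Hochberg adjustment over all genes tested and a threshold of 0.05. The effect of IL-5 was fitted within each cell type, and the cell types and the difference of responses were compared in a model of all 8 libraries. The edgeR test gives no SE. Each SE printed is the absolute log2 fold change divided by the square root of the F statistic of that test. Correlations between genes and of replicate deviations used TMM-scaled log2 CPM with a prior count of 2. Those between libraries used log2 CPM with a small constant added and no TMM scaling. The alternatives were DESeq2 1.42.0, other scalings and filters, the replicate number as a block, subsets of groups and each library left out. The script was tested on simulated data.

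The members and the 23 lists (245 genes, 1 not in the table) were chosen with earlier results of these data known. Named besides the members were, of each list, the 4 most abundant genes and up to 3 called in each direction with the largest difference between cell types, and the 3 genes most correlated with each member. Some of these genes are counted without being named, and a few are not reported here.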

Additional observations from a re-analysis of the deposited data

How the results depend on the processing

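Groups of 2 libraries limit every comparison, and low counts limit Spi1 and Sall1 in T cells. Between T cells and microglia, 5 to 6 members were lower with 1 library left out, against 7, and 4 with the IL-5 groups alone. Over all genes, 1240 higher and 1753 lower became 2149 higher with DESeq2 (2560 lower), 2790 and 868 with library size only, 396 and 709 with the PBS groups alone, 383 and 883 with the IL-5 groups alone, and 750 to 1724 higher and 1233 to 1910 lower with 1 library left out. With library size only, Tgfbr2 turned to 0.20.

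After IL-5, DESeq2 called 18 genes higher and 49 lower in microglia and 403 and 255 in T cells. In T cells 2 genes were higher without a filter and 2 with all libraries in one fit. For the difference of responses DESeq2 called 130 higher and 51 lower, and 27 and 4 passed without a filter. With 1 library left out, counts ranged from 0 to 532 higher and 0 to 723 lower in microglia (members 0 to 1 in each direction, from the fit without IL-5 replicate 2), 0 to 1 higher in T cells, and 0 to 178 higher and 0 to 54 lower for the difference.

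With 1 library left out, 20 member values without a call changed sign, on the log2 scale. In microglia Sall1 ranged from -0.24 to 0.61, Mef2a from -0.27 to 0.69, Mef2c from -0.045 to 1.24, Tgfb1 from -1.06 to 0.18, Tgfbr1 from -0.17 to 0.093 and Smad3 from -0.65 to 0.72. In T cells Spi1 ranged from -8.66 to 4.78, Irf8 from -0.30 to 0.90, Sall1 from -1.36 to 1.33, Mef2c from -0.51 to 0.89, Tgfb1 from -0.74 to 0.44, Tgfbr1 from -1.55 to 0.17, Tgfbr2 from -0.039 to 1.24 and Smad3 from -1.10 to 0.32. For the difference Spi1 ranged from -8.10 to 4.93, Sall1 from -1.60 to 1.04, Mef2c from -1.29 to 0.40, Tgfb1 from -0.42 to 0.97, Tgfbr1 from -1.57 to 0.19 and Smad3 from -1.34 to 0.37. Scaled to the cell type markers, Sall1 (-0.067) and Mef2a (-0.036) in microglia and Tgfb1 (0.35) in T cells changed sign. The cause was not tested.

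Libraries with the same replicate number did not deviate together (r across genes of 0.014 within microglia, 0.016 within T cells, and 0.016 and 0.019 between the cell types after PBS and IL-5). The labels do not say whether the numbers link samples, and the data gave no sign that they do. With the replicate block 7 members were lower in T cells, as without it, and Spi1 after IL-5 in T cells turned to -1.18.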
